A study of Mus musculus with 6 samples.

Results

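The 10 genes described here encode the transcriptional feedback brakes of the ERK pathway: 5 dual-specificity phosphatases (Dusp1, Dusp4, Dusp5, Dusp6 and Dusp7), 3 Sprouty proteins (Spry1, Spry2 and Spry4) and 2 Spred proteins (Spred1 and Spred2). They were taken by gene symbol from a table of 14665 protein-coding genes, and all 10 were in it. The list was drawn up with earlier results of these data known. RNA was sequenced from C17.2 cells, an immortalized mouse neural stem cell (NSC) line of wild-type genotype. The H/R group (3 libraries) had been kept for 12 h in 5% oxygen and then for 48 h in standard oxygen, a model of ischemia and reperfusion in a dish. The control group (3 libraries) had stayed in standard oxygen, and the groups had the cell line, medium and genotype in common. Both groups come from 1 cell line, and whether a group's libraries were made from separate cultures is not stated, so that p measures the spread between these libraries, which may be technical.

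Growth factor receptors activate Ras, Raf, MEK and then ERK, and active ERK switches on genes that end its own signal. Dual-specificity phosphatases remove phosphate from both the threonine and the tyrosine of the activation loop of MAP kinases. DUSP1, DUSP4 and DUSP5 act in the nucleus and are classic inducible genes, with DUSP1 also acting on p38 and JNK, whereas DUSP6 and DUSP7 act in the cytoplasm and prefer ERK. Sprouty proteins interfere with the signal between the receptor and Raf, and Spred proteins bring neurofibromin, which inactivates Ras, to the membrane. In neural progenitors these genes are known as readouts and limiters of FGF and EGF signaling.

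The gene counts summed to 15639751 to 16830389 per H/R library and to 7267809 to 8371882 per control library, so the H/R values rest on more reads. Expression is given in CPM, the counts of a gene relative to a library total that is scaled by the TMM method, and means are given ± SD (n = 3 per group). The H/R and control groups were compared with the two-sided quasi-likelihood test of edgeR over 11104 genes that passed a filter on low counts, with an adjusted p (Benjamini-Hochberg) under 0.05 as the threshold. The median log2 fold change over the genes tested was 0.01 with these factors and 0.22 without any, and among the genes that passed 49.7% were higher after H/R with them and 74.4% without. Of 7 NSC markers tested, Nes (331 ± 19.2 CPM after H/R, 196 ± 16.3 CPM in controls) and Notch1 (32.9 ± 3.88 CPM after H/R, 18.8 ± 2.09 CPM in controls) were higher, Sox9 (1.79 ± 0.317 CPM after H/R, 8.28 ± 6.84 CPM in controls) was lower, and Vim, Sox2, Msi1 and Hes1 did not pass, while Pax6 and Fabp7 were absent from the table. The mesenchymal transcript Col1a1 was at 4135 ± 557 CPM after H/R and 4319 ± 822 CPM in controls, and the summed microglial markers stayed at or below 0.353 CPM after H/R and 1.17 CPM in controls. Of the markers of other cell types, Map2 (34.9 ± 2.44 CPM after H/R, 76.7 ± 3.99 CPM in controls) was lower and Pdgfra (29.5 ± 1.74 CPM after H/R, 11.6 ± 1.59 CPM in controls) was higher, while Rbfox3, Dcx, Olig1 and Olig2 were absent, and their part in the results was not tested. In these bulk samples, fewer cells of a type and less RNA per cell cannot be told apart.

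All 10 members passed the filter, and they did not move as a block. After H/R, 2 were higher (Dusp7 and Spred1), 3 were lower (Dusp1, Dusp5 and Spry1), and 5 did not pass the threshold (Dusp4, Dusp6, Spry2, Spry4 and Spred2). Over all genes tested, 37.8% passed the threshold, 18.8% higher and 19.0% lower. The libraries of the groups did not overlap for 6 members, compared with 49.7% of all genes. The log2 fold changes ran from -1.39 for Dusp5 to 0.93 for Dusp7, with a median of -0.12 for the members and 0.01 for all genes.

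**Figure D1:**
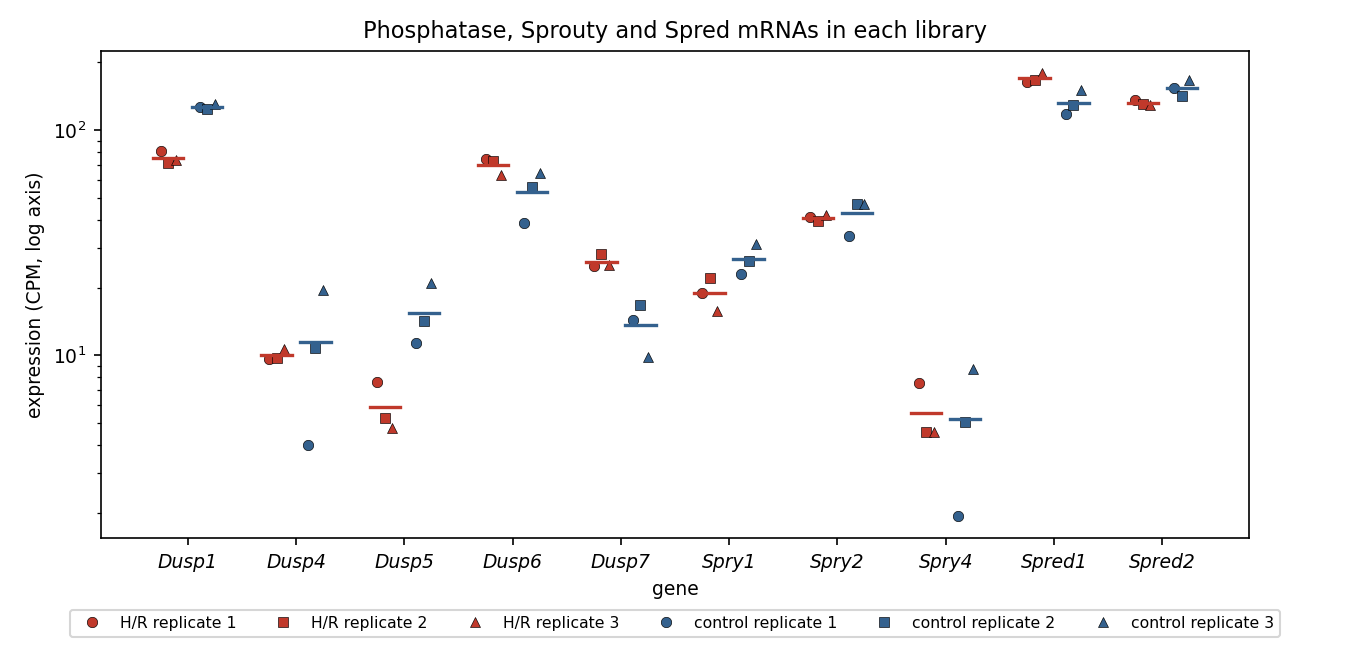
Expression of the 10 genes in CPM on a log axis, with 1 point per library (circle, square and triangle for replicates 1, 2 and 3) and a bar at the group mean, H/R to the left of control for each gene. Dusp1, Dusp5, Spry1 and Spred2 sit lower after H/R and Dusp7 and Spred1 higher, all with no overlap. For Dusp4 and Spry4 the control points are spread widely around the H/R points.

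**Figure D2:**
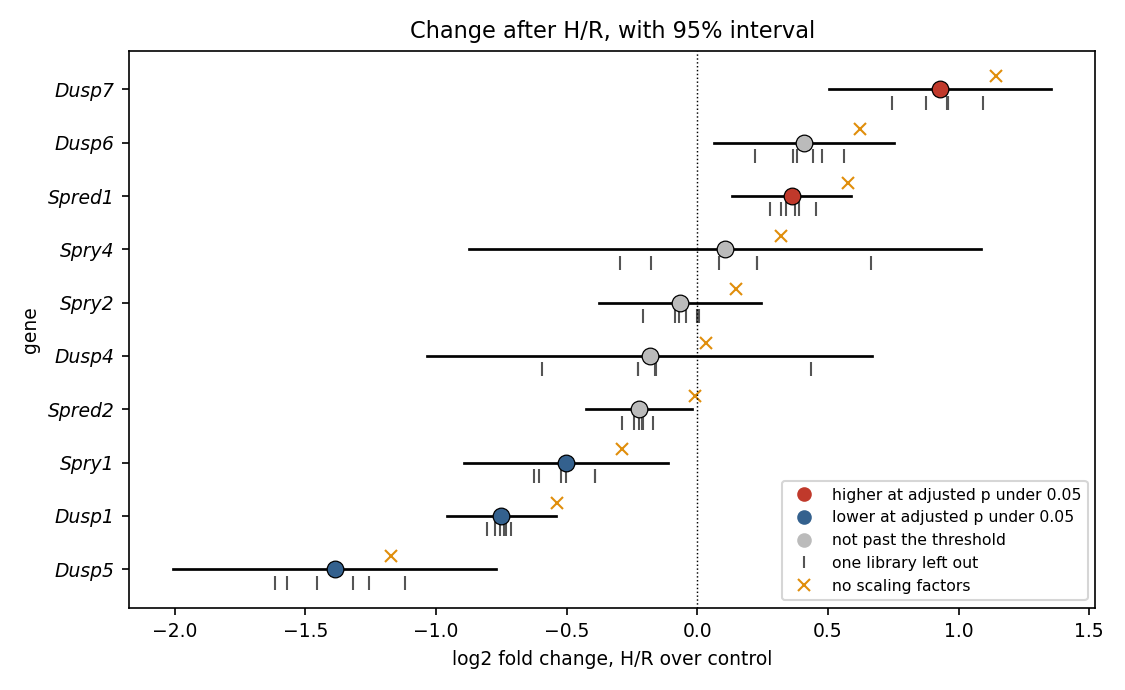
Log2 fold change of H/R over control for each gene, with the 95% interval as a line, the values with 1 library left out as ticks and the value without scaling factors as a cross. The ticks of Dusp4, Spry2 and Spry4 lie on both sides of 0. All other genes stay on their side of 0 throughout, with the cross of Spred2 close to it at -0.01.

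Among the nuclear, inducible phosphatases, Dusp1 and Dusp5 were lower after H/R. Dusp1 (ENSMUSG00000024190, chr17:26505590-26562128, minus strand, GRCm38, a span that takes in annotated transcripts starting far upstream) encodes MKP-1, which acts on p38, JNK and ERK. It was at 81.3, 71.5 and 73.9 CPM in the H/R libraries, against 126, 125 and 130.4 CPM in the control libraries. All 3 H/R libraries were below all 3 controls, and the libraries of each group lay close together. The mean was 75.5 ± 5.11 CPM after H/R and 127 ± 2.92 CPM in controls, a log2 fold change of -0.75 (SE 0.10, 95% interval -0.96 to -0.54, edgeR adjusted p = 5.31e-05), or 0.594 of the control level.

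Dusp5 (ENSMUSG00000034765, chr19:53529109-53542431, plus strand) encodes a phosphatase that inactivates ERK and also holds it in the nucleus. It was at 7.59, 5.29 and 4.77 CPM after H/R, against 11.3, 14.2 and 21.0 CPM in controls. The groups did not overlap, although the controls differed by 1.85-fold between the lowest and the highest. The log2 fold change of -1.39 (SE 0.29, interval -2.01 to -0.77, edgeR adjusted p = 0.00191) was the largest of the 10 in size. The study's thresholds, a fold change of at least 2 and an unadjusted p under 0.05, were applied to the fit used here. Dusp5 was the only member that passed them, as did 11.2% of all genes. Without scaling factors, Dusp7 also exceeded a fold change of 2 (log2 fold change 1.14). Its counts were low, 81 to 138 after H/R and 88 to 140 in controls.

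Dusp4 (ENSMUSG00000031530, chr8:34807297-34819894, plus strand) encodes MKP-2, the closest relative of MKP-1. It was at 9.68, 9.74 and 10.7 CPM after H/R, against 4.00, 10.8 and 19.6 CPM in controls. The H/R libraries were nearly alike and fell inside the range of the controls. The log2 fold change was -0.18 (SE 0.39, interval -1.03 to 0.67, edgeR adjusted p = 0.751), and it was -0.60 without control replicate 1 and 0.44 without control replicate 3, so the direction rested on the controls kept.

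The promoters of the members with the clearest differences are shown for their sequence features. They are RefSeq sequences of GRCm38.p6, from 250 bases before to 50 bases after the annotated start, written 5′ to 3′ on the strand of the gene. Those of Dusp1 (chr17:26508423-26508722, minus strand), Dusp5 (chr19:53528895-53529194, plus strand) and Dusp7 (chr9:106368382-106368681, plus strand) read as follows, with the core of the cAMP response element (CRE, TGACG, on either strand), the E-box CACGTG and the CArG box, the site type of serum response factor, in capitals.
Dusp1: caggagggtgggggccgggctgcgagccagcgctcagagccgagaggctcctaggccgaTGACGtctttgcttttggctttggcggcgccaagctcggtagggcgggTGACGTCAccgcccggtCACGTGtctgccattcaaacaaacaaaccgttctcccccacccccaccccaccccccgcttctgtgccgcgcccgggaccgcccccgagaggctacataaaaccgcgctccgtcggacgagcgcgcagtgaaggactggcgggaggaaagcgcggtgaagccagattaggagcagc
Dusp5: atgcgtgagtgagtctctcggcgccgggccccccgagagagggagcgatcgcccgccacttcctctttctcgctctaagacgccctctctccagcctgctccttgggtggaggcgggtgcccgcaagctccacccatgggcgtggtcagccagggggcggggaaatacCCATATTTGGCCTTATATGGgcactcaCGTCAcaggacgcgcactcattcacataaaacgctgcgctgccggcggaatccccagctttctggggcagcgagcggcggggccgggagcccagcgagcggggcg
Dusp7: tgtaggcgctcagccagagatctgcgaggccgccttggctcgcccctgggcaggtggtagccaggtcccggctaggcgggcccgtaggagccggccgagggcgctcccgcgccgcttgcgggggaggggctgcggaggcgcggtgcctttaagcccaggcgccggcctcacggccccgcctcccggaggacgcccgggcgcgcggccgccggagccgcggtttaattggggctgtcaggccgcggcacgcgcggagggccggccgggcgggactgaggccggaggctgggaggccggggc

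A promoter was searched for 8 of the 10 members, all but Dusp4 and Spry4. The full CRE, TGACGTCA, was found in Dusp1 alone of the 8, starting at -143 from the gene start, and in 1.79% of 32851 promoters of the same length. The shorter core TGACG, which the full element contains, was found in Dusp1, Dusp5 and Spred2 and in 20.8% of all promoters. Dusp1 also held the E-box CACGTG at -126, a match shared by 7.15% of promoters. Dusp5 was the only one of the 8 with CArG boxes, which lay next to each other at -82 and -72, against 1.63% of promoters with any. Dusp7 held none of the capital-letter motifs, and its promoter was 78.7% G and C, compared with 67.0% for Dusp1, 66.7% for Dusp5 and a median of 52.7% over all promoters. Neither the AP-1 motif TGACTCA (5.20% of promoters) nor the ETS motif CCGGAAG (8.86%) was found in the 8 windows, both strands searched. A match describes letters in the window and not a bound site.

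Of the cytoplasmic, ERK-selective phosphatases, Dusp7 was higher after H/R and Dusp6 did not pass the threshold. Dusp7 (ENSMUSG00000053716, chr9:106368632-106375724, plus strand) encodes MKP-X. It was at 25.1, 28.1 and 25.2 CPM after H/R, against 14.3, 16.8 and 9.88 CPM in controls. Every H/R library exceeded every control. The mean was 26.1 ± 1.72 CPM after H/R and 13.6 ± 3.49 CPM in controls, 1.91 times the control level (log2 fold change 0.93, SE 0.20, interval 0.51 to 1.36, edgeR adjusted p = 0.00230).

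Dusp6 (ENSMUSG00000019960, chr10:99263231-99267489, plus strand) encodes MKP-3, the phosphatase most often used as a readout of FGF and ERK activity. It was at 74.3, 72.9 and 63.6 CPM after H/R, against 38.7, 56.1 and 64.4 CPM in controls. The highest control lay just above the lowest H/R library, so the groups overlapped. The log2 fold change of 0.41 (SE 0.16, interval 0.06 to 0.75) had an edgeR adjusted p of 0.0605. It was 0.22 (adjusted p = 0.165) without control replicate 1, 0.56 (adjusted p = 0.0102) without control replicate 3 and 0.62 (adjusted p = 0.00684) without scaling factors.

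The balance between the phosphatases was also read as ratios of counts within a library, which no scaling of libraries can change. The ratio of Dusp7 to Dusp1 counts was 0.309, 0.393 and 0.341 in H/R libraries, against 0.113, 0.134 and 0.0758 in control libraries. The ratio of Dusp6 to Dusp1 was 0.914, 1.02 and 0.861 after H/R, against 0.306, 0.450 and 0.494 in controls. Both ratios were higher in every H/R library than in any control, with wide gaps between the groups. The ratio of Dusp5 to Dusp6 went the other way, at 0.102, 0.0725 and 0.0750 after H/R, against 0.293, 0.252 and 0.326 in controls. Counts were also summed by where the proteins act, cytoplasm (Dusp6 and Dusp7) over nucleus (Dusp1, Dusp4 and Dusp5). That ratio was 1.06 ± 0.0963 after H/R and 0.432 ± 0.0565 in controls (SD, n = 3 each). No compartment or protein was measured, and Dusp6 and Dusp1 held most of the counts on their sides of the ratio. A ratio within a library shows unequal change and not which gene moved, and the ratios were chosen with the members' values known, so no test was run on them.

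**Figure D3:**
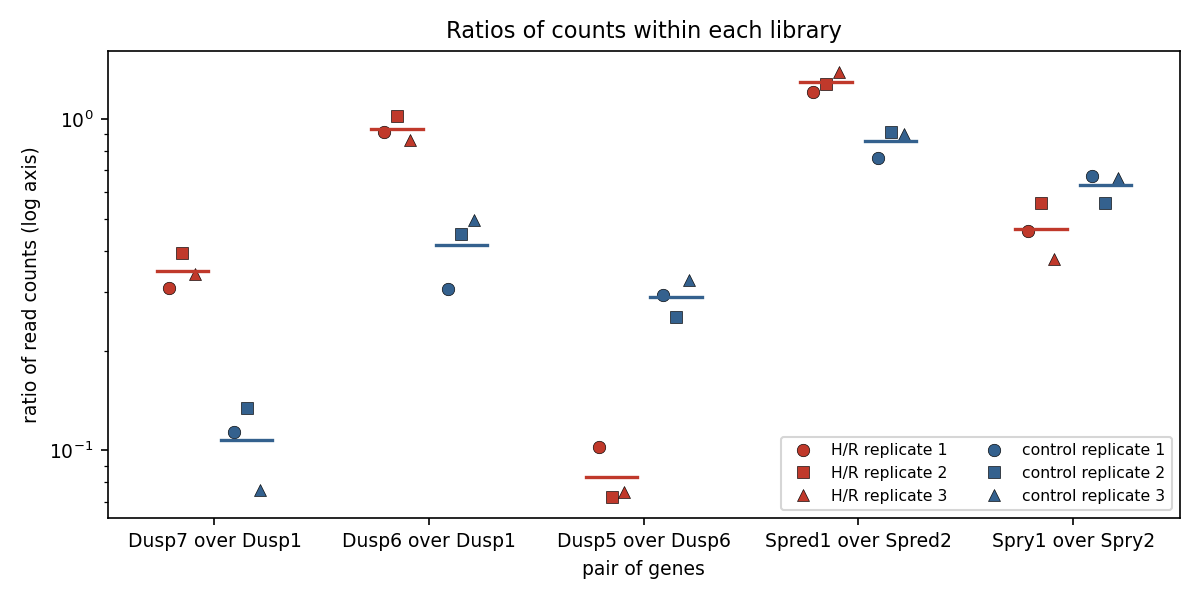
Ratios of read counts of pairs of the genes within each library on a log axis, with 1 point per library and a bar at the group mean, H/R to the left of control in each pair. The ratios of Dusp7 to Dusp1, Dusp6 to Dusp1 and Spred1 to Spred2 are higher in all 3 H/R libraries than in any control, Dusp5 to Dusp6 is lower, and for Spry1 to Spry2 the groups touch at 0.556 after H/R and 0.558 in a control.

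Per kilobase of exon, Dusp1 made up 38.6% ± 1.75 of the summed level of the 5 phosphatases after H/R and 55.5% ± 6.50 in controls. Dusp6 made up 37.9% ± 1.61 after H/R and 24.0% ± 3.22 in controls. With these lengths, the H/R cells carried Dusp1 and Dusp6 at like levels, while in the control cells Dusp1 was the leading phosphatase transcript. The length used for Dusp1, 3311 bases, includes exons of transcripts starting far upstream. A shorter length would raise Dusp1 above Dusp6 after H/R as well. Dusp7 took 13.2% ± 1.13 after H/R and 5.96% ± 1.91 in controls, and Dusp5 took 4.00% ± 0.805 after H/R and 8.83% ± 1.73 in controls.

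Of the Sprouty genes only Spry1 passed the threshold, and only by a small margin. Spry1 (ENSMUSG00000037211, chr3:37639947-37644598, plus strand) was at 18.9, 22.0 and 15.8 CPM after H/R, against 22.9, 26.4 and 31.1 CPM in controls. The groups did not overlap, but the highest H/R library and the lowest control were less than 1 CPM apart. The log2 fold change was -0.50 (SE 0.18, interval -0.89 to -0.11, edgeR adjusted p = 0.0424). The call was lost without control replicate 2 (-0.52, adjusted p = 0.0793), control replicate 3 (-0.39, 0.123), H/R replicate 1 (-0.50, 0.108) or H/R replicate 3 (-0.39, 0.151), and without scaling factors (-0.29, 0.213).

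Spry2 (ENSMUSG00000022114, chr14:105891947-105896819, minus strand), the Sprouty gene with the highest level in these cells, was at 41.0, 39.5 and 41.9 CPM after H/R, against 34.0, 47.3 and 47.0 CPM in controls. The H/R libraries lay within 1.06-fold of each other and inside the control range. The log2 fold change was -0.07, with an interval of -0.38 to 0.24 (edgeR adjusted p = 0.750), so a change of more than 0.38 in either direction lay outside the interval. Spry4 (ENSMUSG00000024427, chr18:38586247-38601415, minus strand), a feedback inhibitor induced by FGF, was at 7.53, 4.58 and 4.59 CPM after H/R, against 1.93, 5.07 and 8.68 CPM in controls. With only 15 counts in control replicate 1 and 58 in control replicate 3, its log2 fold change of 0.11 (SE 0.45, interval -0.88 to 1.09, edgeR adjusted p = 0.878) left a wide range. It was -0.30 without control replicate 1 and 0.67 without control replicate 3.

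Spred1 and Spred2 had the highest mean CPM of the 10 genes in both groups, and Spred1 was higher after H/R. Spred1 (ENSMUSG00000027351, chr2:117121374-117182279, plus strand), the member altered in Legius syndrome in humans, was at 164, 167 and 179.8 CPM after H/R, against 118, 129.9 and 150.4 CPM in controls. All H/R libraries were above all controls, with the controls spread more widely. The mean was 170.2 ± 8.47 CPM after H/R and 133 ± 16.6 CPM in controls (log2 fold change 0.36, SE 0.10, interval 0.13 to 0.59, edgeR adjusted p = 0.0157), a difference of 1.28-fold. The adjusted p was 0.0658 without control replicate 2 and also without H/R replicate 3, at log2 fold changes of 0.34 and 0.32.

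Spred2 (ENSMUSG00000045671, chr11:19924375-20024026, plus strand) was at 136, 131 and 129.8 CPM after H/R, against 154, 142 and 167 CPM in controls. The H/R libraries were all lower, yet the log2 fold change of -0.22 (SE 0.09, interval -0.42 to -0.02) did not pass the threshold (edgeR adjusted p = 0.0789), and it was -0.01 without scaling factors. Within libraries, the ratio of Spred1 to Spred2 counts was 1.20, 1.28 and 1.38 after H/R, against 0.761, 0.915 and 0.902 in controls. Spred1 thus had more counts than Spred2 in each H/R library and fewer in each control library. Per kilobase of exon, Spred1 made up 31.0% ± 1.54 of the summed level of the 5 Sprouty and Spred genes after H/R and 23.3% ± 0.403 in controls, and Spred2 made up 35.4% ± 0.808 after H/R and 40.1% ± 3.79 in controls.

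The order of the levels per kilobase of exon differed between the groups in the places of Dusp1, Spred1, Dusp7 and Dusp5, among others. After H/R, Spred2 led with 28.6 CPM per kilobase, followed by Spred1 (25.1), Dusp1 (22.8), Dusp6 (22.4), Spry2 (19.6), Dusp7 (7.78), Spry1 (6.50), Dusp4 (3.66), Dusp5 (2.38) and Spry4 (1.17). In controls, Dusp1 led with 38.4 CPM per kilobase, followed by Spred2 (33.4), Spry2 (20.5), Spred1 (19.5), Dusp6 (16.9), Spry1 (9.23), Dusp5 (6.26), Dusp4 (4.18), Dusp7 (4.07) and Spry4 (1.10). Neighbours whose libraries overlapped were Spred1 with Dusp1, Dusp1 with Dusp6 and Dusp7 with Spry1 after H/R. In controls the overlapping neighbours were Spry2 with Spred1, Spred1 with Dusp6, Spry1 with Dusp5, Dusp5 with Dusp4 and Dusp4 with Dusp7. Spry4 had the lowest level in both groups. The lengths are unions of all annotated exons, so the levels per length are approximate. The place of Dusp1 after H/R depends on its length, which includes exons of transcripts starting far upstream.

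The control libraries varied more than the H/R libraries across the table, and at these genes too. They also had fewer counts, and the part of depth in this difference was not tested. The coefficient of variation was smaller after H/R than in controls for 8 of the 10 members and for 69.8% of all genes tested. For Dusp4 it was 5.42% after H/R and 68.3% in controls, and for Spry4 it was 30.6% after H/R and 64.6% in controls, compared with medians over all genes of 9.10% after H/R and 14.5% in controls. Control replicate 1 was the lowest control for 7 of the 10 members, compared with 35.6% of all genes. For 6 of the 10 it was the lowest and control replicate 3 the highest, compared with 22.0% of all genes. The highest control was 4.91 times the lowest for Dusp4, a ratio exceeded by 0.266% of 1502 genes within 1.5-fold of its control mean. For Spry4 the highest was 4.49 times the lowest, exceeded by 2.93% of 1058 genes within 1.5-fold of its control mean. Both genes have the largest such ratios of the 10 members, so these shares describe them and are not tests.

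Some other transcripts that ERK is known to induce also differed widely among the controls. Of 18 such transcripts tested, 13 were lowest in control replicate 1, and 15 had a wider range among controls than among H/R libraries, as did 69.5% of all genes. The highest control was more than 2 times the lowest for 6 of the 18, compared with 15.4% of all genes, and 1.05 to 1.44 times for the other 12, among them Egr1 and Fos, which were highest in control replicate 1. The examples that follow are from the 6 and were chosen after their values were seen. Etv5, an ETS factor downstream of FGF signaling, was at 67.3, 71.1 and 78.3 CPM after H/R, against 28.2, 79.5 and 95.2 CPM in controls. Its relative Etv4 was at 8.30, 6.06 and 5.12 CPM after H/R, against 0.773, 4.68 and 6.14 CPM in controls. Fosl1, a Fos family factor, was at 29.8, 20.1 and 21.4 CPM after H/R, against 16.5, 38.2 and 56.9 CPM in controls. In all 3 genes the H/R libraries lay near or inside the control range, and control replicate 1 stood below the others. The sources used here give no difference in handling between the controls, and what set this library apart was not tested.

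The noncoding tables held few reads at these genes. At Dusp4, an antisense transcript within an intron (chr8:34809536-34810409, minus strand) had 14, 1 and 10 counts after H/R, against 0, 0 and 0 in controls. A natural antisense transcript over the start of Dusp5 (chr19:53528609-53529655, minus strand) had 0, 0 and 5 counts after H/R, against 4, 8 and 1 in controls, and one over the start of Spry1 (chr3:37638579-37640656, minus strand) had 0, 1 and 9 counts after H/R, against 8, 1 and 10 in controls. None of the 3 passed the filter on low counts, so none was tested, and the H/R libraries of this table were deeper (1145192 to 1239163 counts, against 601626 to 652393 in controls). The strand setting of the counting is not given in the sources used here, so reads from a gene and its antisense partner may not be told apart. A retained-intron transcript of Dusp1 that shares its exons (chr17:26505591-26508474, minus strand) had 53, 44 and 26 counts after H/R, against 15, 28 and 20 in controls, with a log2 fold change of -0.04 (edgeR adjusted p = 0.979), in a table where 4.93% of 6779 transcripts passed the threshold. Another transcript sharing exons of Dusp1 (chr17:26506516-26507723, minus strand) had 43, 51 and 27 counts after H/R, against 15, 5 and 23 in controls. Its log2 fold change was 0.45 (edgeR adjusted p = 0.775). The reads of both cannot be separated from those of Dusp1 itself. Plus-strand transcripts over the upstream part of the Dusp1 span were at -0.63 (edgeR adjusted p = 0.763) and -0.24 (edgeR adjusted p = 0.886). Back-spliced reads of a circular RNA from exons of Spred2 (chr11:19998120-20008477, plus strand) numbered 12, 3 and 9 after H/R and 3, 5 and 2 in controls, too few to be tested.

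In the wider pathway, the other brakes on Ras and ERK included 6 higher and 2 lower genes among 18 tested, with a median log2 fold change of 0.08. Pea15a, which keeps ERK in the cytoplasm, averaged 163 ± 3.94 CPM after H/R and 94.8 ± 15.2 CPM in controls (log2 fold change 0.79, edgeR adjusted p = 0.000163). Rasa1, a GTPase-activating protein that switches Ras off, rose by 0.55 on the log2 scale (edgeR adjusted p = 0.00148). Sh2b3, an adaptor that dampens receptor signals, rose by 0.51 (edgeR adjusted p = 0.00581). Lrig1, which promotes the turnover of ErbB receptors, rose by 0.35 (edgeR adjusted p = 0.00915). Pebp1, the Raf kinase inhibitor protein, fell by 0.42 on the log2 scale (edgeR adjusted p = 0.00451), and Cblb, a ubiquitin ligase of receptor and adaptor proteins, fell by 0.64 (edgeR adjusted p = 0.000541). The share of these genes that passed was 44.4%, against 37.8% of all genes.

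The other dual-specificity phosphatases had 1 higher and 4 lower genes among 15 tested, a share called of 33.3%, against 37.8% of all genes. Without control replicate 2, 2 were higher, and without scaling factors 3 were higher. Dusp3, a small phosphatase that acts on ERK and JNK, averaged 190.3 ± 5.59 CPM after H/R and 116 ± 27.9 CPM in controls (log2 fold change 0.72, edgeR adjusted p = 0.00132). The 4 lower genes were Dusp11 (-0.67, edgeR adjusted p = 3.98e-05), which acts on the ends of RNA, Dusp18 (-0.82, edgeR adjusted p = 9.66e-05), Dusp10 and the scarcely expressed Dusp27 (-2.49, edgeR adjusted p = 0.00573). Dusp10, which prefers p38 and JNK, averaged 23.2 ± 1.72 CPM after H/R and 41.4 ± 8.28 CPM in controls (-0.83, edgeR adjusted p = 0.00147). Dusp10 and Dusp1, both known to act on p38 and JNK, were lower after H/R. Dusp8 (0.24, edgeR adjusted p = 0.279) and Dusp16 (0.40, edgeR adjusted p = 0.0704), also known to act on JNK and p38, did not pass. These genes were set side by side after their values were seen.

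Among the p38 and JNK kinases themselves, 6 genes were higher and 1 was lower of 12 tested, a share called of 58.3% against 37.8% of all genes, with a median log2 fold change of 0.49. Mapk14, which encodes p38 alpha, was at 183, 189 and 177 CPM after H/R, against 105, 106 and 95.6 CPM in controls (0.84, edgeR adjusted p = 1.46e-05). Map2k3, the kinase that activates p38, averaged 92.8 ± 4.06 CPM after H/R and 53.7 ± 8.37 CPM in controls (0.79, edgeR adjusted p = 0.000237). Map2k4, which activates JNK and p38, was higher by 0.47 (edgeR adjusted p = 0.00195), and Mapkapk2, a kinase that p38 activates, by 0.52 (edgeR adjusted p = 0.00249). Mapk11, which encodes p38 beta, was the lower gene, at 6.75 ± 1.93 CPM after H/R and 12.1 ± 2.43 CPM in controls (-0.84, edgeR adjusted p = 0.0313), and it lost the threshold without control replicate 3, H/R replicate 1 or H/R replicate 3 and without scaling factors.

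The core of the pathway from Ras to ERK had 7 higher and 7 lower genes among 27 tested, a share called of 51.9% against 37.8% of all genes, with a median of -0.06. Ptpn11, which encodes the phosphatase SHP2 that Sprouty proteins bind, averaged 322 ± 1.68 CPM after H/R and 237 ± 5.19 CPM in controls (0.44, edgeR adjusted p = 0.000700). Sos1, the exchange factor that loads Ras, rose by 0.54 on the log2 scale (edgeR adjusted p = 0.000362), and Rras, a Ras relative, rose by 0.89 (edgeR adjusted p = 0.000292). Mknk2, a kinase downstream of ERK, rose by 0.62 (edgeR adjusted p = 0.00383), and Mras, another Ras relative, fell by 0.62 (edgeR adjusted p = 0.000844). Ksr1, the scaffold that holds Raf and MEK together, fell by 0.91 (edgeR adjusted p = 0.000557), and the kinases downstream of ERK Rps6ka2 and Mknk1 fell by 0.97 and 0.99. Of 9 partners of Sprouty and Spred, Ptpn11 was higher, Nedd4, a ubiquitin ligase that targets Sprouty, was lower (-0.20, edgeR adjusted p = 0.0450), and the other 7 did not pass, a share called of 22.2%. The Nedd4 call was lost when any library but control replicate 3 was left out, without scaling factors and with edgeR's exact test. Without scaling factors 5 of the 9 partners were higher and 0 were lower.

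Other transcripts that ERK induces were split, with 4 higher and 7 lower of 18 tested and a median of -0.37. Egr1, an immediate early zinc finger factor, averaged 7.53 ± 0.810 CPM after H/R and 28.4 ± 4.41 CPM in controls (-1.91, edgeR adjusted p = 8.06e-06). Myc averaged 14.9 ± 0.577 CPM after H/R and 40.1 ± 4.65 CPM in controls (-1.43, edgeR adjusted p = 1.20e-05), and Fos averaged 5.61 ± 1.32 CPM after H/R and 11.5 ± 2.51 CPM in controls (-1.04, edgeR adjusted p = 0.0100). These 3 were lower, as were the immediate early phosphatases Dusp1 and Dusp5, but Junb, another immediate early factor, was higher (0.84, edgeR adjusted p = 0.00160). Ccnd1, the cyclin of early cell cycle entry, averaged 324 ± 14.8 CPM after H/R and 169 ± 16.6 CPM in controls (0.94, edgeR adjusted p = 7.85e-06), and Etv1 averaged 37.0 ± 1.84 CPM after H/R and 14.7 ± 1.74 CPM in controls (1.34, edgeR adjusted p = 2.48e-05). Epha4, a receptor of ephrins, was higher (0.59, edgeR adjusted p = 0.000961) and the immediate early gene Ier3 was lower (-0.80, edgeR adjusted p = 0.0126). Of these 18 genes 61.1% passed the threshold, against 37.8% of all genes. Without H/R replicate 3, 4 of the 18 were lower in place of 7. Without scaling factors 4 of the 18 were also lower, and 10 of the 18 other brakes were higher in place of 6.

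**Figure D4:**
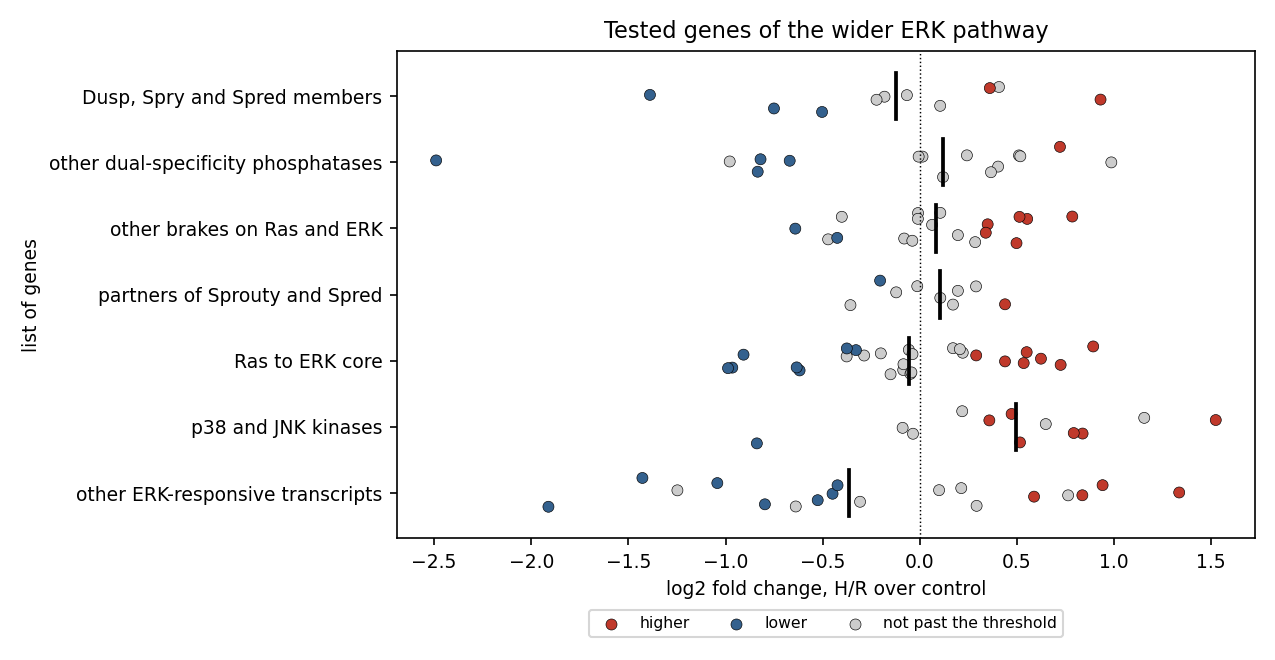
Log2 fold change of H/R over control for each tested gene, 1 row of points per gene list, with a vertical bar at the median of the list and colours for genes higher, lower or not past an adjusted p of 0.05 in edgeR. The members run from -1.39 to 0.93 around a median of -0.12, the p38 and JNK kinases have the highest median at 0.49, and the other ERK-responsive transcripts have the lowest at -0.37.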

How the data were processed

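RNA of 3 H/R and 3 control C17.2 libraries was depleted of ribosomal RNA. Per the labels and the study's methods, the authors used cutadapt 1.9.3 for trimming, HISAT2 2.0.4 for alignment to mm10 and HTSeq 0.9.1 for gene counts, and the deposited table holds raw counts of 14665 genes. They called circRNA junction counts with DCC after STAR 2.5.1b. The tool and strand setting of the lncRNA counts are not given in the sources used here, and 18 columns of other values were not used, including the authors' own comparisons.

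Counts were filtered (filterByExpr), scaled by TMM and compared, H/R against control, with the two-sided quasi-likelihood test of edgeR 4.0.16 in R 4.3.3, adjusted by Benjamini-Hochberg within each table (11104 genes, 6779 lncRNAs, 20 circRNAs). The biological coefficient of variation was 0.144. The fit was tested on simulated counts. Coordinates and exon lengths come from GENCODE vM21, and promoters from RefSeq. No library repeated another: replicates differed at a chi-square of 8.67 to 28.7 per degree of freedom. The reads carry no molecular identifiers, so counts are not counts of independent molecules. Alternatives were RLE, no scaling, DESeq2 1.42.0, edgeR's exact test, other filters, thinned H/R libraries, a replicate block, each library left out and the study's thresholds.

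All 10 members are named, and of each other list up to 4 genes per direction with the smallest adjusted p. Dusp8, Dusp16, Etv4, Etv5 and Fosl1 fall outside this rule. The members and lists were chosen with earlier results of these data known.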

Additional observations from a re-analysis of the deposited data

How the results depend on the processing

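Dusp1, Dusp5 and Dusp7 kept their direction and stayed past the threshold under all 14 alternatives that fit a fold change, with adjusted p of at most 0.000803, 0.0146 and 0.0136. Spred2 passed under none of them, with 0.0503 as the lowest adjusted p. The number of members higher was 2, and 1 to 3 when a library was left out, and the number lower was 3, and 2 to 3 when a library was left out. At the study's thresholds, applied to the main fit, 0 members were higher and 1 was lower. Over all genes 646 were higher and 596 lower, in place of 2087 and 2109. Without scaling factors 3704 genes were higher and 1272 lower. Dusp6 also passed with edgeR's exact test (adjusted p = 0.0460) and with no filter on low counts (0.0175). The sign of the log2 fold change turned under 3 alternatives for Dusp4, 3 for Spry2 and 2 for Spry4, none of which passed. Deviations from the group means correlated at 0.0399, -0.00385 and 0.0158 between H/R and control libraries of the same replicate number. Between libraries of different numbers they correlated at -0.0302 to 0.0132. Values this small, from groups of 3, cannot decide whether libraries of the same number were paired. With the replicate block, 3 members were higher and 2 lower, as Dusp6 passed (0.43, adjusted p = 0.0484) and Spry1 (-0.50, adjusted p = 0.0557) did not, and Nedd4 also lost its call. In that fit 2039 genes were higher and 1998 lower. The cause of these shifts was not tested. Dusp4, Dusp5 and Spry4 had the widest intervals, and Spry4 had the fewest counts, down to 15 in a control library.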
